A study of Rattus norvegicus with 9 samples.

Results

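Cholesterol is made from acetyl-CoA through mevalonate and squalene, and cells match its synthesis and uptake to the sterol content of their membranes. When sterol is low, the escort protein Scap carries the transcription factor SREBP2 (gene Srebf2) out of the endoplasmic reticulum to be cut and activated, and SREBP2 then turns on the synthesis enzymes. When sterol is high, the Insig proteins hold Scap back, and oxysterols activate the nuclear receptors LXRβ and LXRα (Nr1h2 and Nr1h3), which turn on genes for cholesterol efflux. Described here are 33 genes of these pathways, of 14607 genes listed in any library. They were listed by symbol with earlier results of these data known. They comprise 7 enzymes of the mevalonate stage and 11 of the later sterol stage (together the 18 synthesis enzymes), Ggps1 of the isoprenoid branch, 4 SREBP regulators, 3 transport and storage genes, 2 fatty acid desaturases, and 5 efflux and LXR genes.

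Levels were measured by messenger RNA sequencing of primary heart muscle cells from newborn SD rats aged 1 to 2 days, in 9 libraries from 3 lentivirus groups of 3. The lenti-TCF7L2 virus was used to overexpress TCF7L2, a transcription factor that works with β-catenin in canonical Wnt signalling, and the lenti-shTCF7L2 virus carried a hairpin against it. The lenti-NC virus was the vector control. All cells were labelled wild type, were exposed to virus for 16 h and then stayed for 48 h in medium with fetal bovine serum, which itself supplies lipoproteins. No group without virus was analysed here. Nothing in the labels says that replicates came from separate cultures, and p-values therefore measure only how far these libraries vary, which may be technical. The cells were not sorted. In such bulk RNA, fewer cells of a type and less RNA per cell cannot be told apart.

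The targeted gene Tcf7l2 had 142, 206 and 85.7 CPM (counts scaled to a common library size) in lenti-TCF7L2 libraries, 25.6, 30.3 and 25.9 CPM in lenti-shTCF7L2 libraries and 40.0, 36.4 and 34.1 CPM in lenti-NC libraries. No values overlapped between groups. Tcf7l2 was higher with lenti-TCF7L2 than with lenti-NC (log2 difference 1.97, SE 0.27, adjusted p = 8.46e-04). With lenti-shTCF7L2 the difference from lenti-NC was -0.43, which was not called (adjusted p = 0.511). A fit restricted to the 6 lenti-shTCF7L2 and lenti-NC libraries called it lower (adjusted p = 1.82e-04). Libraries held 15085922 to 16478295 expected counts. Replicates of lenti-TCF7L2 were less alike than the others, with a lowest correlation of log2 CPM across genes of 0.948, against 0.994 within both lenti-shTCF7L2 and lenti-NC. In lenti-TCF7L2 replicate 3, genes longer than 8000 bases had a median log2 level of -0.98 against the lenti-NC mean, and genes of up to 1000 bases had 0.49. The same medians were -0.33 and 0.14 in lenti-TCF7L2 replicate 1, and -0.0067 and -0.068 in lenti-TCF7L2 replicate 2.

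All 33 genes passed the filter on low counts, and each had at least 10 counts in every library. Between genes, levels are compared in FPKM (fragments adjusted for gene length and library size). In lenti-NC libraries Fdps, which makes farnesyl pyrophosphate, the branch point to sterols and to protein prenylation, had the highest level at 132 ± 10.8 FPKM (SD, n = 3). The sterol enzymes Msmo1 and Cyp51 followed at 54.6 ± 3.81 and 53.2 ± 4.76 FPKM, next to the desaturase Fads2 at 53.2 ± 7.91 FPKM, and these 3 levels differed by less than their SDs. Of the 5 efflux and LXR genes, Nr1h2 had 42.1 ± 1.26 FPKM, Abcg1 25.2 ± 2.16, Abca1 16.5 ± 0.727 and Mylip 6.70 ± 0.364. Nr1h3 had the lowest level of all 33 genes, 2.86 ± 0.447 FPKM. The other LXR receptor gene, Nr1h2, was thus the more abundant of the pair in these cultures, on the FPKM scale.

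Promoter letters were read for 28 of the 33 genes from RefSeq windows on the GRCr8 build that run from 250 bases before the gene start to 50 after it. The CCAAT box is the site of NF-Y, a factor known to act beside SREBP at sterol gene promoters. CCAAT on either strand was present in 12 of 15 windows of synthesis enzymes (80.0%), 1 of 4 windows of efflux and LXR genes (25.0%) and 37.5% of all 33469 windows. The SREBP site was searched as TCACNCCAC and was present in 0 of 28 windows, against 1.12% of all windows. This exact word is rare in all windows, so 0 of 28 does not show that these promoters lack SREBP sites. The TCF site was searched as CTTTGAT or CTTTGAA and was present in 1 of 28, that of Mvk, against 8.73% of all windows. All motifs were searched on both strands, and matches are a description of these windows only. Shown are the 200 bases before the start of 4 genes that were lower with lenti-TCF7L2 than with lenti-shTCF7L2. Of the genes with a window, these had the largest such differences among synthesis enzymes (Tm7sf2, Sc5d and Idi1) and SREBP regulators (Insig1). Mylip, the efflux and LXR gene with a box, is shown as the higher gene with the largest difference. Acat2, Cyp51, Dhcr7 and Fads2 were also lower with lenti-TCF7L2 than with lenti-shTCF7L2, and their windows held no CCAAT box. CCAAT boxes, which read ATTGG where they lie on the other strand, are in capitals. The stretches are chr1:212789542-212789741 for Tm7sf2, chr8:51538278-51538477 for Sc5d, chr17:66547525-66547724 for Idi1, chr4:8057770-8057969 for Insig1 and chr17:19514472-19514671 for Mylip, all on the minus strand and written 5′ to 3′.
Tm7sf2: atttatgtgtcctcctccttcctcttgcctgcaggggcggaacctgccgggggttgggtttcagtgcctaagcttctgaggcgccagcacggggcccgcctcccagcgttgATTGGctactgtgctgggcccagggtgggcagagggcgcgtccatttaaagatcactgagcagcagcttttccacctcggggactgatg
Sc5d: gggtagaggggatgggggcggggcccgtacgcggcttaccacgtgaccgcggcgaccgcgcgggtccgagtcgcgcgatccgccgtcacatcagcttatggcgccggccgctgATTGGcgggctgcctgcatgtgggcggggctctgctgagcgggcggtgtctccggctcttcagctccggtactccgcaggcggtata
Idi1: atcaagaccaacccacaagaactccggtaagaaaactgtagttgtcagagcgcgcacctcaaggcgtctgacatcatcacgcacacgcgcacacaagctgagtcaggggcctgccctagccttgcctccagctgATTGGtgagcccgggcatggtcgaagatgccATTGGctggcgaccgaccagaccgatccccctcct
Insig1: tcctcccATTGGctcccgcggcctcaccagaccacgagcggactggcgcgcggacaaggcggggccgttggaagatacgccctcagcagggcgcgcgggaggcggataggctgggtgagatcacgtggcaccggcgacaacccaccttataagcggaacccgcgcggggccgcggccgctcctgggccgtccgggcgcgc
Mylip: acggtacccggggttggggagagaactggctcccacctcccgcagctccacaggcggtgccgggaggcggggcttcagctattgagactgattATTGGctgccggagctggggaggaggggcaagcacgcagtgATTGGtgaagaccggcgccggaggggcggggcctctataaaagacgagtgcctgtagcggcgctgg

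With lenti-TCF7L2, 12 of the 33 genes fell and 3 rose against lenti-NC. Lower were the enzymes Hmgcs1, Idi1, Sqle, Tm7sf2, Nsdhl and Sc5d, both Insig genes, the sterol carrier Stard4, both desaturases and the efflux transporter Abcg1. Higher were the enzymes Mvk and Ebp and the receptor gene Nr1h2. The share that fell was 36.4%, against 13.8% of all 11761 genes tested, and the share that rose was 9.09%, against 18% of all genes. Genes were called at an adjusted p under 0.05 in edgeR's quasi-likelihood test. The groups did not overlap for 16 of the 33 genes (48.5%), against 46.8% of all genes.

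Among mevalonate enzymes, Hmgcs1, which makes HMG-CoA, had 89.9, 86.7 and 73.2 CPM with lenti-TCF7L2, against 138, 118 and 133 CPM with lenti-NC. All 3 lenti-TCF7L2 libraries lay below all 3 controls, and the log2 difference was -0.64, SE 0.10, adjusted p = 0.00174. Idi1, which isomerises isopentenyl pyrophosphate, had 24.6, 23.5 and 22.9 CPM with lenti-TCF7L2 and 34.4, 31.7 and 35.2 CPM with lenti-NC. Its groups were also apart (log2 difference -0.51, SE 0.09, adjusted p = 0.00378). Mvk, the mevalonate kinase, went the other way, at 27.5, 25.3 and 31.3 CPM with lenti-TCF7L2 and 22.9, 20.1 and 22.7 CPM with lenti-NC (log2 difference 0.35, SE 0.10, adjusted p = 0.0302). The Mvk call was lost under 8 of 18 alternatives, among them leaving out lenti-TCF7L2 replicate 1 or any single lenti-shTCF7L2 or lenti-NC library, with adjusted p from 0.0119 to 0.115. The other 4 enzymes of this stage, Acat2, Pmvk, Mvd and Fdps, were not called, with log2 differences from -0.18 (Fdps) to 0.03 (Acat2).

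In the later sterol stage, 4 of 11 enzymes fell and 1 rose. Tm7sf2, a sterol reductase, had 5.86, 4.64 and 6.45 CPM with lenti-TCF7L2 and 11.9, 8.35 and 10.6 CPM with lenti-NC, and the log2 difference was -0.86, SE 0.18, adjusted p = 0.00603. Sc5d, the lathosterol desaturase, had 44.7, 41.0 and 32.1 CPM with lenti-TCF7L2 and 66.7, 60.0 and 65.2 CPM with lenti-NC, and its log2 difference was -0.70, SE 0.12, adjusted p = 0.00284. In both genes every lenti-TCF7L2 library lay below every control. Sqle, the squalene epoxidase and a rate-limiting step, averaged 43.4 ± 3.67 CPM with lenti-TCF7L2 and 61.3 ± 4.48 CPM with lenti-NC (SD, n = 3 each; log2 difference -0.50, SE 0.10, adjusted p = 0.0046). Nsdhl, which takes part in removing methyl groups from the sterol ring, averaged 27.9 ± 2.03 CPM with lenti-TCF7L2 and 36.6 ± 2.03 CPM with lenti-NC (log2 difference -0.39, SE 0.09, adjusted p = 0.0114), and without lenti-NC replicate 1 it missed the threshold (adjusted p = 0.0505). Ebp, the sterol isomerase, was the exception at 14.0, 12.1 and 16.7 CPM with lenti-TCF7L2 and 8.88, 9.63 and 9.49 CPM with lenti-NC. It rose by a log2 difference of 0.61, SE 0.13, adjusted p = 0.00668. Fdft1, Lss, Cyp51, Msmo1, Hsd17b7 and Dhcr7 were not called, with log2 differences from -0.30 to 0.02. Ggps1, which makes the geranylgeranyl donor for protein prenylation, had a log2 difference of -0.33 and was not called (adjusted p = 0.0674).

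Of the SREBP regulators, both Insig genes fell, and neither Srebf2 nor Scap was called. Insig1, itself a known SREBP target, had 58.4, 54.8 and 54.4 CPM with lenti-TCF7L2 and 87.7, 81.5 and 91.9 CPM with lenti-NC (log2 difference -0.64, SE 0.08, adjusted p = 5.13e-04). Insig2 had 8.25, 8.90 and 8.90 CPM with lenti-TCF7L2 and 12.9, 12.5 and 13.3 CPM with lenti-NC (log2 difference -0.57, SE 0.10, adjusted p = 0.00268). Neither gene's groups overlapped. Srebf2 averaged 157 ± 17.6 CPM with lenti-TCF7L2 and 158 ± 7.95 CPM with lenti-NC (log2 difference -0.0058, 95% interval -0.21 to 0.20). Scap had a log2 difference of 0.19 with adjusted p = 0.163. With the trend on gene length taken off, both were called higher, Srebf2 at a log2 difference of 0.20 and Scap at 0.34.

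The desaturases Fads1 and Fads2, which make long polyunsaturated fatty acids and are known SREBP targets, both fell. Fads2 had 61.6, 63.9 and 40.1 CPM with lenti-TCF7L2 and 104, 77.3 and 95.7 CPM with lenti-NC (log2 difference -0.74, SE 0.17, adjusted p = 0.0115). Fads1 averaged 88.0 ± 12.6 CPM with lenti-TCF7L2 and 123 ± 14.9 CPM with lenti-NC (log2 difference -0.48, SE 0.12, adjusted p = 0.0155), and its call was lost without lenti-NC replicate 1 or 3 and with only the 6 libraries compared. Stard4, which shuttles cholesterol between membranes, had 8.38, 8.90 and 4.54 CPM with lenti-TCF7L2 and 10.1, 12.3 and 13.2 CPM with lenti-NC. Its groups did not overlap, but its call (log2 difference -0.71, SE 0.23, adjusted p = 0.0473) was lost under 12 of 18 alternatives, among them leaving out lenti-TCF7L2 replicate 1 or any single lenti-shTCF7L2 or lenti-NC library. Npc1, which exports cholesterol from lysosomes, and Soat1, which esterifies it, were not called (log2 differences -0.07 and -0.17). Both were lowest in lenti-TCF7L2 replicate 3, at 42.6 and 38.8 CPM.

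Among the efflux and LXR genes, Abcg1, a cholesterol exporter, had 42.5, 54.1 and 48.2 CPM with lenti-TCF7L2 and 98.5, 83.1 and 92.5 CPM with lenti-NC. It fell by the largest amount of the 33 genes in this comparison (log2 difference -0.92, SE 0.10, adjusted p = 3.55e-04) and is known as an LXR target. Nr1h2 had 107, 97.5 and 105 CPM with lenti-TCF7L2 and 82.6, 87.1 and 82.7 CPM with lenti-NC, with no overlap (log2 difference 0.29, SE 0.07, adjusted p = 0.0092), and it was not called with only the 6 libraries of these groups (adjusted p = 0.0531). The partner exporter Abca1 varied most, at 73.6, 118 and 31.8 CPM with lenti-TCF7L2, against 122, 113 and 114 CPM with lenti-NC. One lenti-TCF7L2 library thus lay within the control range and another far under it, and the log2 difference of -0.64 was not called (adjusted p = 0.195). It was called without lenti-TCF7L2 replicate 2 (log2 difference -1.15, adjusted p = 0.0109). Abca1 is the longest of the 33 genes at 6801 bases, and its lowest library, lenti-TCF7L2 replicate 3, is the one in which long genes were lowest. Long genes were also low, by less, in lenti-TCF7L2 replicate 1. With the trend on gene length taken off, Abca1 was again not called. How much of its low value went with gene length was not tested. Mylip, whose product tags lipoprotein receptors for degradation, and Nr1h3 were not called (log2 differences 0.07 and 0.31).

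Without lenti-TCF7L2 replicate 3, 16 of the 33 genes were lower with lenti-TCF7L2 than with lenti-NC and 4 were higher, against 21.5% and 21.2% of all genes in that fit. The lower genes then included 10 of the 18 synthesis enzymes, among them Pmvk, Fdps, Fdft1 and Msmo1, and Scap was then higher. Without lenti-TCF7L2 replicate 2, Ggps1, Soat1 and Abca1 were also lower. Without lenti-NC replicate 1, 9 of the 33 genes were lower and 2 higher (2430 of all 11872 genes called in either direction). With only the 6 lenti-TCF7L2 and lenti-NC libraries, 10 were lower and 1 higher (2321 of all 11647 genes called in either direction). Levels of cell type markers, those of cardiomyocytes included, also differed in the same comparison. The summed level of 8 cardiomyocyte markers was 14380 to 16847 CPM with lenti-TCF7L2 and 32347 to 32996 CPM with lenti-NC, and 7 of the 8 fell. The summed level of 8 endothelial markers was 143 to 214 CPM with lenti-TCF7L2 and 70.6 to 92.9 CPM with lenti-NC, with 7 of 8 higher. Of 5 macrophage markers tested out of 8, 3 rose, and those 5 summed to 40.9 to 44.0 CPM with lenti-TCF7L2 and 19.6 to 22.2 CPM with lenti-NC. The macrophage markers Cd163 and C1qb were at 0 in every lenti-NC library, and Cd163 in every lenti-shTCF7L2 library. Of 8 fibroblast markers, 4 rose and 1 fell, and the sum was 37162 to 44621 CPM with lenti-TCF7L2 and 34389 to 35539 CPM with lenti-NC. Of 7 smooth muscle and pericyte markers 1 rose, with a sum of 6729 to 7914 CPM with lenti-TCF7L2 and 7450 to 7547 CPM with lenti-NC. The part of these shifts in the sterol gene differences was not tested.

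**Figure D1:**
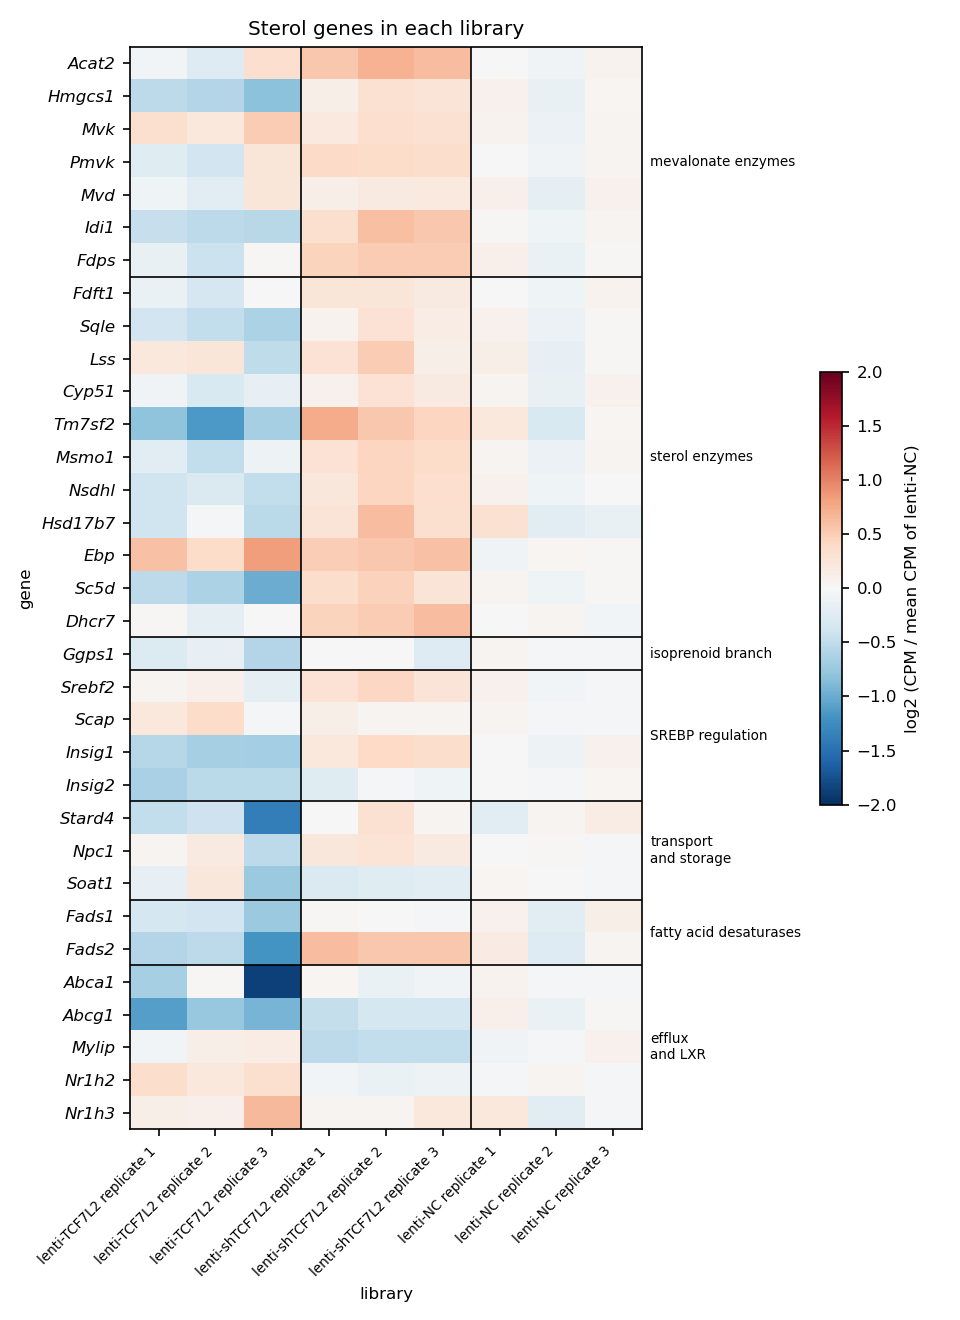
Colours give log2 of the CPM of each of 33 sterol genes (rows, grouped by role) in each of 9 libraries (columns: lenti-TCF7L2, lenti-shTCF7L2, lenti-NC) relative to the mean of the lenti-NC libraries. Synthesis enzymes are mostly below the control mean with lenti-TCF7L2 and above it with lenti-shTCF7L2, and Abca1 in lenti-TCF7L2 replicate 3 (31.8 CPM) is the darkest cell.

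With lenti-shTCF7L2, fewer of the 33 genes were called against lenti-NC. Acat2, Idi1 and Dhcr7 rose and Mylip fell. That is 9.09% of the 33 genes higher, against 1.32% of all genes, and 3.03% lower, against 2.32% of all genes. A fit that also took the replicate number into account called 0 of the 33 genes higher, with Mylip still lower. In the main fit the log2 difference lay above 0 in all 18 synthesis enzymes, with a range of 0.17 to 0.61. Its median was 0.36, against 0.01 over all genes. An unadjusted p under 0.05 was found for 13 of the 18, and for 1887 of all 11761 genes in either direction. The groups did not overlap in 15 of the 18 enzymes. Over all 33 genes 24 did not overlap (72.7%), against 40.9% of all genes.

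Acat2, the thiolase that makes acetoacetyl-CoA at the head of the pathway, had 65.2, 72.6 and 68.8 CPM with lenti-shTCF7L2 and 45.3, 42.8 and 47.1 CPM with lenti-NC (log2 difference 0.61, SE 0.14, adjusted p = 0.045). Idi1 had 42.1, 51.0 and 49.3 CPM with lenti-shTCF7L2, above the lenti-NC values of 34.4, 31.7 and 35.2 CPM (log2 difference 0.49, SE 0.09, adjusted p = 0.0223). Dhcr7, which carries out the last reduction to cholesterol, had 41.2, 43.2 and 46.5 CPM with lenti-shTCF7L2 and 30.4, 31.6 and 29.2 CPM with lenti-NC (log2 difference 0.52, SE 0.09, adjusted p = 0.0151). Each of these enzymes was higher in 3 of 3 lenti-shTCF7L2 libraries than in any control. Fdps, the most abundant enzyme, had 231, 240.4 and 239.8 CPM with lenti-shTCF7L2 and 182, 155 and 171 CPM with lenti-NC, and narrowly missed the threshold (log2 difference 0.49, adjusted p = 0.0517). Ebp and Insig1 also came close, with log2 differences of 0.53 and 0.33 and adjusted p of 0.0583 and 0.0568. Tm7sf2 had 17.2, 14.9 and 13.8 CPM with lenti-shTCF7L2 and 11.9, 8.35 and 10.6 CPM with lenti-NC, apart but not called (log2 difference 0.57, adjusted p = 0.11).

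Outside the enzymes, Srebf2 had 194, 209.5 and 189 CPM with lenti-shTCF7L2 and 167, 152 and 155 CPM with lenti-NC, with no overlap but no call (log2 difference 0.32, adjusted p = 0.106). Fads2 showed the same pattern at 142, 134 and 134 CPM with lenti-shTCF7L2 and 104, 77.3 and 95.7 CPM with lenti-NC (log2 difference 0.57, adjusted p = 0.124), while its neighbour in the pathway Fads1 had a log2 difference of -0.0011 (95% interval -0.27 to 0.27). Ggps1, Insig2, Scap, Stard4, Npc1 and Soat1 were not called, with log2 differences from -0.25 (Soat1) to 0.23 (Npc1). Mylip had 14.7, 14.99 and 15.1 CPM with lenti-shTCF7L2 and 20.2, 20.8 and 22.4 CPM with lenti-NC. The 3 lenti-shTCF7L2 values lay close together and below every control (log2 difference -0.50, SE 0.09, adjusted p = 0.019). Abcg1 averaged 69.6 ± 3.55 CPM with lenti-shTCF7L2 and 91.4 ± 7.74 CPM with lenti-NC, apart but not called (log2 difference -0.39, adjusted p = 0.0846). Abca1, Nr1h2 and Nr1h3 had log2 differences of -0.05, -0.10 and 0.11.

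How many genes were called here depended on which libraries set the spread. All 9 libraries share 1 spread per gene in the fit, and the median coefficient of variation of the 33 genes was 14.3% within lenti-TCF7L2, 5.49% within lenti-shTCF7L2 and 5.53% within lenti-NC. With only the 6 lenti-shTCF7L2 and lenti-NC libraries, 21 of the 33 genes rose and 3 fell, against 13% and 15.5% of all genes. The 21 included every synthesis enzyme but Mvd, and also Srebf2, Insig1, Npc1 and Fads2, and those that fell were Soat1, Abcg1 and Mylip. Without lenti-TCF7L2 replicate 3, 17 rose and 3 fell, against 6.51% and 10.9% of all genes. Without lenti-TCF7L2 replicate 2, Fdps, Msmo1, Ebp and Insig1 were also higher and Abcg1 lower, and without lenti-TCF7L2 replicate 1 the Acat2 call was lost. Leaving out any lenti-NC library, or lenti-shTCF7L2 replicate 2 or 3, left 0 genes higher by edgeR, with 8 to 12 synthesis enzymes still at an unadjusted p under 0.05. The share of all genes under that level was not counted in these fits. Without lenti-shTCF7L2 replicate 1, 1 gene was higher, and Mylip was not called without any single lenti-NC or lenti-shTCF7L2 library. The log2 difference stayed above 0 in all 18 enzymes in each of these fits. Among replicates, lenti-NC replicate 2 had the lowest control value in 16 of 18 enzymes, and lenti-shTCF7L2 replicate 2 the highest of its group in 13.

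The summed level of the cardiomyocyte markers was 30418 to 30846 CPM with lenti-shTCF7L2 and 32347 to 32996 CPM with lenti-NC. Of 8 fibroblast markers 3 fell, while the sum was 37456 to 39463 CPM with lenti-shTCF7L2 and 34389 to 35539 CPM with lenti-NC. Endothelial markers summed to 72.0 to 74.5 CPM with lenti-shTCF7L2 and 70.6 to 92.9 CPM with lenti-NC. Macrophage markers summed to 18.0 to 19.9 CPM with lenti-shTCF7L2 and 19.6 to 22.2 CPM with lenti-NC, and 1 of the 5 tested, Csf1r, was higher (log2 difference 1.32, adjusted p = 0.0263). Smooth muscle and pericyte markers summed to 7198 to 7375 CPM with lenti-shTCF7L2 and 7450 to 7547 CPM with lenti-NC, and 1 of 7, Cnn1, was higher (log2 difference 0.59, adjusted p = 0.0118). Csf1r and Cnn1 are named after their values were seen. The part of these levels in the result was not tested.

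**Figure D2:**
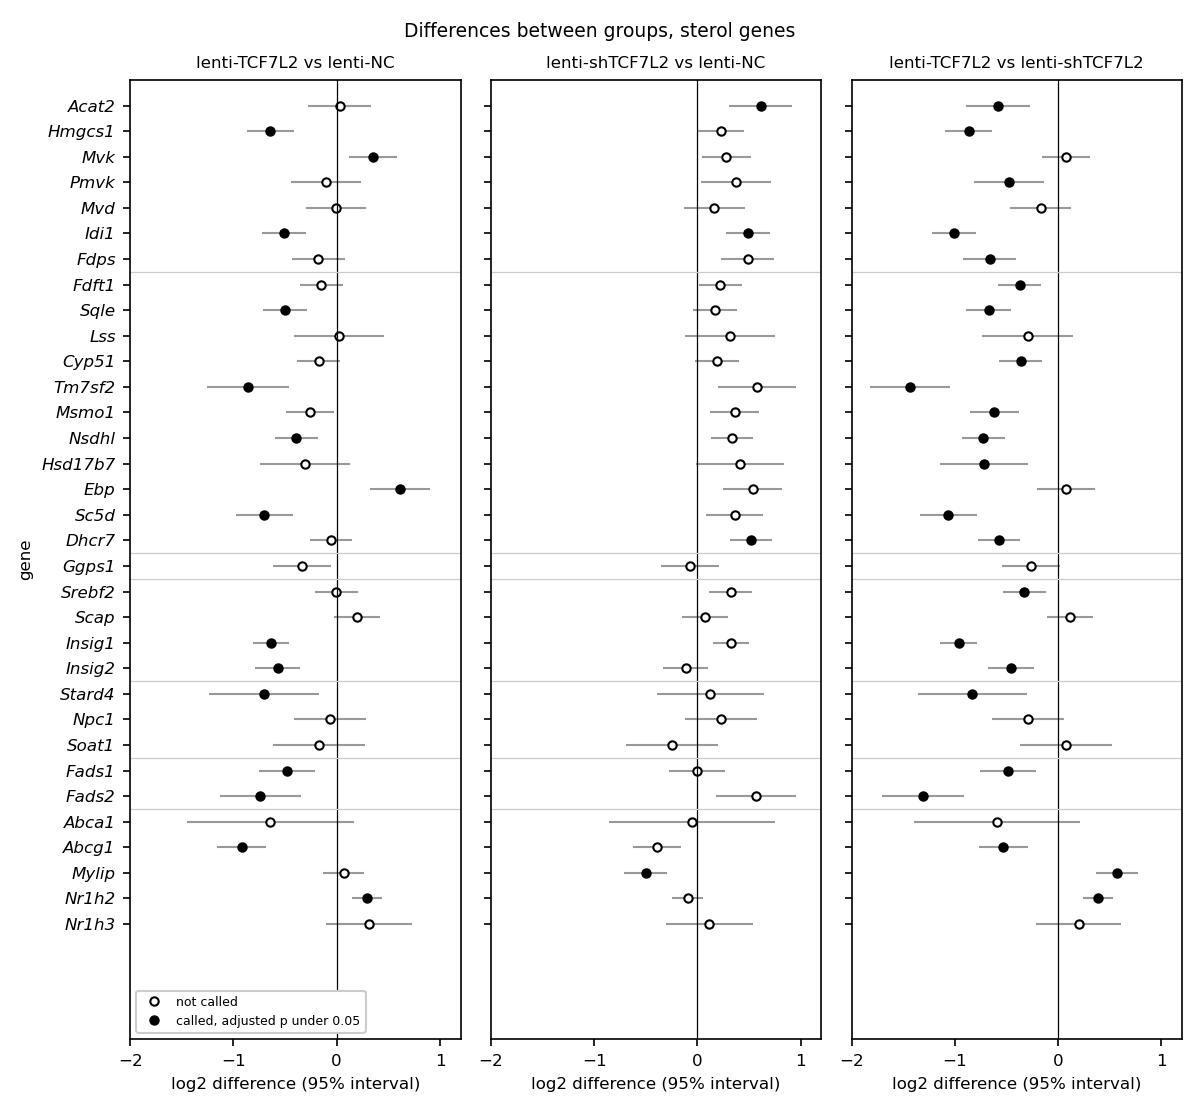
Points give the log2 difference between groups for 33 sterol genes, bars the 95% interval from edgeR's fit of all 9 libraries, and filled points an adjusted p under 0.05. Between the TCF7L2 viruses (right panel) 14 of 18 synthesis enzymes are filled and below 0, while Mylip and Nr1h2 are filled and above 0.

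Set directly against each other, the TCF7L2 viruses differed at 23 of the 33 genes. With lenti-TCF7L2, 21 were lower than with lenti-shTCF7L2, which is 63.6% against 14.7% of all genes, and 2 were higher, which is 6.06% against 18.4% of all genes. The groups did not overlap for 23 genes (69.7%), against 47.2% of all genes. Lower were 14 of 18 synthesis enzymes, all but Mvk, Mvd, Lss and Ebp, together with Srebf2, Insig1, Insig2, Stard4, Fads1, Fads2 and Abcg1. The 2 higher genes were Mylip and Nr1h2. This comparison uses the same lenti-TCF7L2 and lenti-shTCF7L2 libraries as those above, so it is not a separate experiment. Without lenti-TCF7L2 replicate 3, 22 genes were lower, against 22.3% of all genes in that fit, and 15 of them were synthesis enzymes. Without lenti-shTCF7L2 replicate 2, 15 genes were lower, 10 of them synthesis enzymes (2649 of all 11859 genes called in either direction). With only the 6 libraries compared, 18 were lower (2644 of all 11669 genes called in either direction). In the same comparison 7 of 8 cardiomyocyte markers were lower with lenti-TCF7L2 than with lenti-shTCF7L2, with sums of 14380 to 16847 CPM with lenti-TCF7L2 and 30418 to 30846 CPM with lenti-shTCF7L2. Higher were 7 of 8 endothelial, 4 of 8 fibroblast and 3 of the 5 macrophage markers tested, with endothelial sums of 143 to 214 CPM with lenti-TCF7L2 and 72.0 to 74.5 CPM with lenti-shTCF7L2. Fibroblast markers summed to 37162 to 44621 CPM with lenti-TCF7L2 and 37456 to 39463 CPM with lenti-shTCF7L2, and macrophage markers to 40.9 to 44.0 CPM with lenti-TCF7L2 and 18.0 to 19.9 CPM with lenti-shTCF7L2. Of 7 smooth muscle and pericyte markers 2 were higher and 2 lower, with sums of 6729 to 7914 CPM with lenti-TCF7L2 and 7198 to 7375 CPM with lenti-shTCF7L2. The part of these shifts in the sterol gene differences was not tested.

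Tm7sf2 differed most, at 5.86, 4.64 and 6.45 CPM with lenti-TCF7L2 and 17.2, 14.9 and 13.8 CPM with lenti-shTCF7L2 (log2 difference -1.43, SE 0.17, adjusted p = 3.60e-04). Fads2 came next at 61.6, 63.9 and 40.1 CPM with lenti-TCF7L2 and 142, 134 and 134 CPM with lenti-shTCF7L2 (log2 difference -1.31, SE 0.17, adjusted p = 5.97e-04). Sc5d had 44.7, 41.0 and 32.1 CPM with lenti-TCF7L2 and 81.6, 88.3 and 76.3 CPM with lenti-shTCF7L2 (log2 difference -1.06, SE 0.12, adjusted p = 2.72e-04). In these genes the highest lenti-TCF7L2 library was below the lowest lenti-shTCF7L2 library. Idi1 was at 0.498 times the lenti-shTCF7L2 level (log2 difference -1.005, SE 0.09, adjusted p = 1.00e-04). Insig1 had the smallest adjusted p of the 33 genes, at 58.4, 54.8 and 54.4 CPM with lenti-TCF7L2 and 101, 115 and 111 CPM with lenti-shTCF7L2 (log2 difference -0.96, SE 0.08, adjusted p = 4.83e-05). Hmgcs1 had a log2 difference of -0.87, SE 0.10, adjusted p = 2.88e-04. Several enzymes that were called against lenti-NC with neither virus were called here, among them Fdps (log2 difference -0.66, SE 0.11, adjusted p = 0.00216), Msmo1 (log2 difference -0.62, SE 0.10, adjusted p = 0.00202) and Fdft1 (log2 difference -0.37, SE 0.09, adjusted p = 0.0146), the squalene synthase. The Pmvk call (log2 difference -0.47, SE 0.15, adjusted p = 0.0374) was lost under 9 of 18 alternatives, which include leaving out any library but lenti-TCF7L2 replicate 3. Fdft1 was not called without lenti-shTCF7L2 replicate 1 or 2, Cyp51 and Stard4 without replicate 2 or 3, Srebf2 without replicate 2, and Hsd17b7 without lenti-shTCF7L2 replicate 2 or lenti-TCF7L2 replicate 1. Srebf2 and Stard4 were also not called with only the 6 libraries compared. With the trend on gene length taken off, the Srebf2 difference of -0.33 became -0.14 and was not called (adjusted p = 0.122). Mvd was also lower, and Scap and Soat1 higher, without lenti-TCF7L2 replicate 3, and Ggps1, Npc1 and Abca1 lower without replicate 2.

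The exceptions among the enzymes were of different kinds. Ebp had 14.0, 12.1 and 16.7 CPM with lenti-TCF7L2 and 13.1, 13.5 and 13.9 CPM with lenti-shTCF7L2, both above the lenti-NC values of 8.88, 9.63 and 9.49 CPM, and the TCF7L2 viruses differed by 0.08 (95% interval -0.20 to 0.36). Mvk was likewise above every control in all libraries of both viruses, at 27.5, 25.3 and 31.3 CPM with lenti-TCF7L2, 25.1, 27.6 and 27.1 CPM with lenti-shTCF7L2 and 22.9, 20.1 and 22.7 CPM with lenti-NC. Lss, the lanosterol synthase, had 44.5, 45.2 and 26.9 CPM with lenti-TCF7L2 and 46.7, 54.6 and 41.7 CPM with lenti-shTCF7L2, and its low value was again lenti-TCF7L2 replicate 3. Mvd, which decarboxylates mevalonate pyrophosphate, overlapped between the groups (log2 difference -0.17, 95% interval -0.46 to 0.12). A missed threshold does not show that these genes are alike under both viruses.

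**Figure D3:**
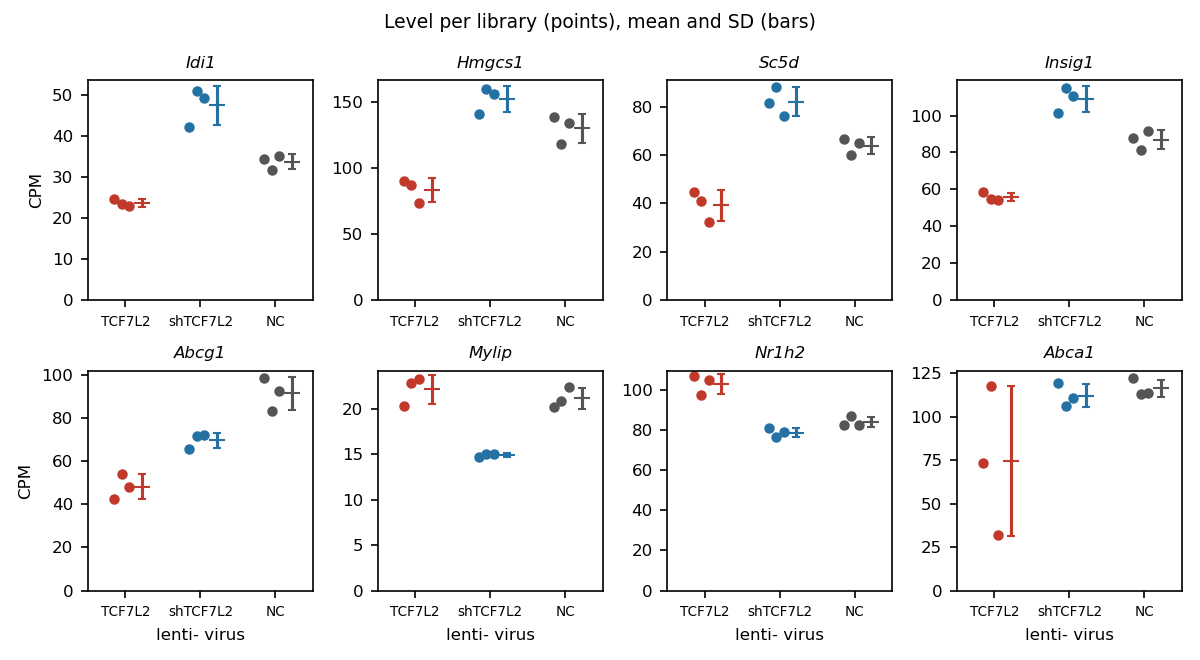
Points give the CPM of 8 genes in each library of lenti-TCF7L2, lenti-shTCF7L2 and lenti-NC, and bars beside them the mean and SD (n = 3). Idi1, Hmgcs1, Sc5d and Insig1 are lowest with lenti-TCF7L2 and highest with lenti-shTCF7L2, Abcg1 is highest with lenti-NC, Mylip is lowest with lenti-shTCF7L2, and Abca1 spreads over 31.8 to 118 CPM within lenti-TCF7L2.

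The synthesis enzymes and the efflux and LXR genes did not share 1 order of groups. Over the 18 synthesis enzymes the median log2 level relative to the lenti-NC mean was -0.18, -0.32 and -0.13 in the lenti-TCF7L2 libraries, 0.29, 0.45 and 0.34 in the lenti-shTCF7L2 libraries and 0.06, -0.12 and 0.05 in the lenti-NC libraries. Every lenti-TCF7L2 library lay below every control, though only narrowly for replicate 3, and every lenti-shTCF7L2 library lay above. The 2 enzyme stages differed in this. Over the 7 mevalonate enzymes the lenti-TCF7L2 medians were -0.14, -0.38 and 0.24, against 0.07, -0.12 and 0.05 with lenti-NC. There lenti-TCF7L2 replicate 3 lay above every control. Over the 11 later sterol enzymes the medians were -0.21, -0.30 and -0.49 with lenti-TCF7L2, against 0.06, -0.12 and 0.03 with lenti-NC. Over the 5 efflux and LXR genes the medians were -0.06, 0.11 and 0.14 with lenti-TCF7L2, -0.06, -0.13 and -0.09 with lenti-shTCF7L2 and 0.07, -0.04 and -0.01 with lenti-NC. There the lenti-TCF7L2 and lenti-NC libraries overlapped, and the lenti-shTCF7L2 libraries lay under all controls.

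As fitted differences, the median of the synthesis enzymes was -0.18 for lenti-TCF7L2 against lenti-NC, 0.36 for lenti-shTCF7L2 against lenti-NC and -0.60 for lenti-TCF7L2 against lenti-shTCF7L2. The same medians over the efflux and LXR genes were 0.07, -0.10 and 0.20, and over all genes tested 0.03, 0.01 and 0.00 for the same 3 comparisons. The efflux and LXR median of 0.20 became -0.00438 without lenti-TCF7L2 replicate 3. These medians carry no test, and the 5 genes behind the second set went different ways. Abcg1 averaged 48.2 ± 5.80 CPM with lenti-TCF7L2, 69.6 ± 3.55 CPM with lenti-shTCF7L2 and 91.4 ± 7.74 CPM with lenti-NC, and was lower with lenti-TCF7L2 than with lenti-shTCF7L2 (log2 difference -0.53, SE 0.10, adjusted p = 0.0046). Mylip averaged 22.1 ± 1.62 CPM with lenti-TCF7L2, 14.9 ± 0.184 CPM with lenti-shTCF7L2 and 21.1 ± 1.14 CPM with lenti-NC, and was higher with lenti-TCF7L2 than with lenti-shTCF7L2 (log2 difference 0.57, SE 0.09, adjusted p = 0.00154). Nr1h2 was higher with lenti-TCF7L2 than with either other virus (log2 difference from lenti-shTCF7L2 0.39, SE 0.07, adjusted p = 0.00202). Known LXR targets among the 5 thus moved apart, with Abcg1 lower and Mylip higher with lenti-TCF7L2 than with lenti-shTCF7L2.

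**Figure D4:**
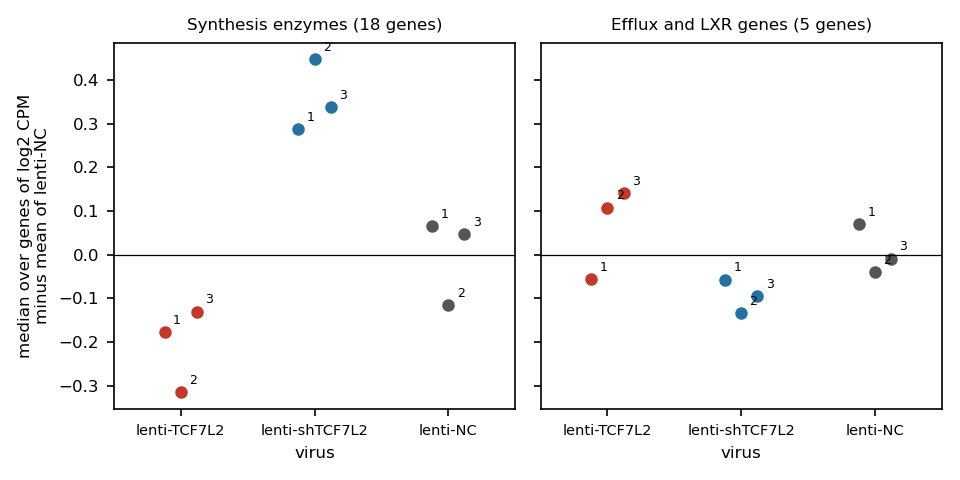
Points give, for each library (numbers are replicates), the median over genes of log2 CPM minus the lenti-NC mean, for 18 synthesis enzymes (left) and 5 efflux and LXR genes (right). The enzyme medians are all below 0 with lenti-TCF7L2 and at 0.29 to 0.45 with lenti-shTCF7L2, while the efflux and LXR medians stay between -0.13 and 0.14.

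Around these genes, 51 further genes of sterol handling were tested, in lists for SREBP processing, sterol trafficking and esters, lipoprotein receptors, oxysterols and LXR targets, and prenylation, dolichol and ubiquinone. With lenti-TCF7L2, 10 of the 51 rose (19.6%, against 18% of all genes) and 9 fell (17.6%, against 13.8% of all genes) relative to lenti-NC. Of 10 SREBP genes 1 rose and 2 fell, of 14 trafficking genes 3 rose and 3 fell, and of 6 receptor genes 1 rose and 3 fell. Of 10 oxysterol and LXR genes 4 rose and 1 fell, and of 11 prenylation, dolichol and ubiquinone genes 1 rose.

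Of the SREBP genes, Rnf139, an endoplasmic reticulum ubiquitin ligase, fell with lenti-TCF7L2 (log2 difference -0.45, SE 0.10, adjusted p = 0.008). Srebf1, which encodes the SREBP that mainly drives fatty acid synthesis, averaged 60.7 ± 13.8 CPM with lenti-TCF7L2 and 95.5 ± 12.1 CPM with lenti-NC (log2 difference -0.65, SE 0.16, adjusted p = 0.0153), and its call was lost without lenti-NC replicate 1 or 3. Aup1, a lipid droplet protein that also serves protein degradation, rose (log2 difference 0.36, adjusted p = 0.0263), a call lost under 6 of 18 alternatives, among them leaving out any single lenti-NC library, and its value was 0.23 with the trend on gene length taken off and 0.22 without lenti-TCF7L2 replicate 3. Of the oxysterol and LXR genes, Ch25h, the enzyme that makes the oxysterol 25-hydroxycholesterol, a suppressor of SREBP processing, had 23.6, 21.2 and 29.9 CPM with lenti-TCF7L2 and 6.79, 9.57 and 5.55 CPM with lenti-NC (log2 difference 1.77, SE 0.21, adjusted p = 4.02e-04). Its product was not measured. Rxrb, a partner of LXR on DNA, and Cyp7b1, an oxysterol hydroxylase, also rose (log2 differences 0.74 and 0.74, adjusted p = 1.85e-04 and 0.00237). The LXR targets Lpcat3 and Pltp, which act on phospholipids, went opposite ways (log2 differences -0.34 and 0.24, adjusted p = 0.00355 and 0.0484), and Pltp is named after its values were seen.

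Of the trafficking genes, the ester hydrolase Nceh1 and the oxysterol-binding Osbp fell with lenti-TCF7L2 (log2 differences -1.13 and -0.47, adjusted p = 0.00272 and 0.003). Gramd1a, which moves cholesterol out of the plasma membrane, rose (log2 difference 0.36, adjusted p = 0.00378). Of the receptors, the fatty acid and lipoprotein receptor Cd36 fell (log2 difference -1.20, SE 0.09, adjusted p = 5.40e-05), as did Vldlr (log2 difference -0.63, SE 0.13, adjusted p = 0.00624) and the sorting receptor Sort1 (log2 difference -0.57, adjusted p = 0.018). The Sort1 call was lost without any single lenti-NC library and with only the 6 libraries compared. With the trend on gene length taken off, Osbp and Sort1 were still called, at -0.31 and -0.27. The prenylation gene Rabggta rose (log2 difference 0.27, adjusted p = 0.0425), but its call was lost under 13 of 18 alternatives, among them leaving out any library but lenti-TCF7L2 replicate 2.

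With lenti-shTCF7L2, 2 of the 51 genes were called against lenti-NC, both higher, which is 3.92%, against 1.32% of all genes called higher. Scarb1, the receptor for high-density lipoprotein, had 70.7, 72.7 and 71.7 CPM with lenti-shTCF7L2 and 57.7, 61.3 and 55.9 CPM with lenti-NC (log2 difference 0.30, SE 0.07, adjusted p = 0.0433). Lpcat3 had 199, 195 and 194 CPM with lenti-shTCF7L2 and 166, 155 and 166 CPM with lenti-NC (log2 difference 0.27, SE 0.06, adjusted p = 0.048). Each of these calls was lost under 10 of 18 alternatives, among them leaving out any single lenti-NC or lenti-shTCF7L2 library. Scarb1 was also higher with lenti-TCF7L2 than with lenti-NC (log2 difference 0.20, SE 0.07, adjusted p = 0.0497), a call lost under 12 of 18 alternatives, among them leaving out any library but lenti-TCF7L2 replicate 2 or 3.

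Between the TCF7L2 viruses, 8 of the 51 genes were higher with lenti-TCF7L2 (15.7%, against 18.4% of all genes) and 8 lower (15.7%, against 14.7% of all genes), shares near those of all genes. Srebf1 had 69.9, 67.4 and 44.9 CPM with lenti-TCF7L2 and 158, 158 and 146 CPM with lenti-shTCF7L2, well apart (log2 difference -1.34, SE 0.16, adjusted p = 3.87e-04). Ch25h stood the other way, at 23.6, 21.2 and 29.9 CPM with lenti-TCF7L2 and 6.07, 6.32 and 7.23 CPM with lenti-shTCF7L2 (log2 difference 1.93, SE 0.21, adjusted p = 1.96e-04). Rnf139, Lpcat3, Cd36, Vldlr, Sort1, Nceh1 and Osbp were lower with lenti-TCF7L2 than with lenti-shTCF7L2, with log2 differences of -0.45, -0.61, -0.92, -0.64, -0.48, -0.91 and -0.31. Aup1, Rxrb and Stard3, a sterol carrier of late endosomes, were higher, with log2 differences of 0.34, 0.44 and 0.35. Adjusted p for these 10 genes ran from 9.93e-05 to 0.033. Of them, Sort1 lost its call under 8 of 18 alternatives, Aup1 under 6 and Osbp under 2, each without lenti-shTCF7L2 replicate 2 among others. With the trend on gene length taken off, Sort1 was at -0.21 and Osbp at -0.17, and without lenti-TCF7L2 replicate 3 Sort1 was at -0.31 and Aup1 at 0.22, all still called.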

How the data were processed

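Polyadenylated RNA was captured for 9 libraries, 3 per lentivirus, and read on the BGISEQ-500 platform, per the labels' protocols. The submitters' processing notes name build rn6 and the tools RSEM 1.3.1, HISAT2, Bowtie2 and DESeq2 1.4.5, without their roles. The authors deposited, per the file headers, expected counts per gene (estimates, not normalised) and FPKM values (scaled to gene length and library size). Groups came from the sample titles.

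Expected counts were rounded, and filterByExpr kept 11761 genes and set aside 2846. Differences were tested with edgeR 4.0.16 (TMM scaling, 2-sided quasi-likelihood test, group only, all 9 libraries in 1 fit) in R 4.3.3, with Benjamini-Hochberg adjustment over all genes tested. Standard errors were derived from the difference and the F statistic. CPM values use TMM-scaled sizes. Strand use in counting is not given in the sources used here, so reads of overlapping genes cannot be told apart. The procedure was also run on simulated data with the same spread in all groups. That run therefore does not cover the wider spread seen within lenti-TCF7L2. The 33 genes, the other lists and the naming rule (all 33 genes, Tcf7l2, and up to 3 called genes per other list and comparison by adjusted p) were chosen with earlier results of these data known.

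The labels do not say whether replicate numbers mark a shared batch, and the main fit used no block. Residual correlations of same-numbered libraries ran from -0.067 to 0.151, with 2 of 9 over 0.1. With 3 libraries per group these values cannot settle whether same-numbered libraries were paired. Alternatives were RLE scaling, no filter, DESeq2 1.42.0, limma 3.58.1 on log2(FPKM + 1) or log2(FPKM + 0.1) for genes averaging 1 FPKM or more, and on log2(FPKM + 1) unfiltered, a replicate block, a length adjustment (lowess, span 0.3), only the 6 libraries compared, and each library left out.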

Additional observations from a re-analysis of the deposited data

How the results depend on the processing

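Counts below are of the 33 sterol genes. For lenti-TCF7L2 against lenti-NC, 3 genes were higher, which became 5 under the length adjustment and 1 when the other group's libraries were left out (6 libraries). The 12 lower genes became 16 under the length adjustment, 10 with 6 libraries and 9 to 16 as single libraries were left out. The synthesis median of -0.18 became -0.30 with the length adjustment and ran from -0.27 to -0.12 as single libraries were left out. For lenti-shTCF7L2 against lenti-NC, the 3 higher genes became 6 with DESeq2, 6 with log2(FPKM + 1), 6 with log2(FPKM + 0.1), 5 with log2(FPKM + 1) and no filter, 10 with the length adjustment and 21 with 6 libraries. The replicate block gave 0 higher there, with Mylip still lower, and the cause was not tested. Leaving out single libraries gave 0 to 17 higher and 0 to 3 lower. The 1 lower gene became 2 with DESeq2, 2 with the length adjustment and 3 with 6 libraries. Between the TCF7L2 viruses, the higher count ran from 2 to 4 and the efflux and LXR median from -0.00438 to 0.29 as single libraries were left out. The 21 lower genes there became 18 with 6 libraries and 15 to 23 as single libraries were left out. Srebf2 in lenti-TCF7L2 against lenti-NC reversed to 0.20 with the length adjustment (adjusted p = 0.0322). Over all genes, 428 calls for lenti-shTCF7L2 against lenti-NC became 651 with DESeq2, 244 with the block, 989 with the length adjustment and 3294 with 6 libraries, and 88 to 2056 as single libraries were left out. For lenti-TCF7L2 against lenti-NC, 3741 calls over all genes became 4662 with the length adjustment, so calls rose beyond the sterol genes too. They became 2321 with 6 libraries and 2430 to 5503 with libraries left out. Between the TCF7L2 viruses, 3890 calls over all genes became 2644 with 6 libraries and 2649 to 5405 with libraries left out. Of 1782 results for single genes under the alternatives, 1587 kept their direction and side of the threshold, 73 lost and 82 gained a call. Another 39, called in neither fit, changed sign, and 1 reversed. Depth set none of the 33 genes aside.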
